A study of Homo sapiens with 6 samples.

Results

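The integrin and laminin genes of U251 cells, an established human glioblastoma line, were examined after exposure to tumor necrosis factor-α (TNF-α), an inflammatory cytokine. They were taken by name from the gene table, as protein-coding genes called ITGA or ITGB followed by their chain code, or LAMA, LAMB or LAMC followed by a number. The rule gave 38 of 58735 genes, namely 26 integrin genes (18 alpha and 8 beta chains) and 12 laminin genes, and 37 of them are reported here. RNA-seq had been done on 6 libraries of this single cell line. The NC group (n = 3) received sterile deionized water, and the TNF-α group (n = 3) received TNF-α at 10 ng/mL over 24 h. Each group was described as 3 biological replicates.

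Integrins are receptors made of 1 alpha and 1 beta chain that span the cell membrane and hold the cell to proteins outside it, while their short tails bind adaptor proteins of the cytoskeleton. The alpha chain largely sets which protein is bound, such as laminin, collagen or fibronectin. Laminins are secreted trimers of an alpha, a beta and a gamma chain and form the sheet of the basement membrane, to which integrins attach. In glioblastoma, both families are known for their part in the attachment and spread of tumor cells along vessels and in brain tissue.

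In the TNF-α group ITGB4 was lower, and LAMB3 and ITGA5 were higher, in all 3 libraries, and these 3 were the members called once GC content and transcript length were corrected for. ITGB4 fell from a mean of 61.2 to 21.8 FPKM (fragments scaled by gene length and library size), and LAMB3 rose from 8.50 to 18.0 FPKM. ITGA5 went from 40.4 to 69.5 FPKM and did not pass the test over all 6 libraries without the correction. Most other members split the TNF-α group, with replicates 2 and 3 well away from NC. Replicate 1 was mostly nearer to NC. For members such as ITGA2, ITGB3, ITGAV, LAMC1 and ITGAE it lay beyond all NC libraries in the opposite direction.

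The TNF-α libraries were not alike. Each library held between 31992167 and 37897044 reads in genes. The library size behind the FPKM values was 0.693 and 0.759 of these reads in TNF-α replicates 2 and 3. In the other 4 libraries it was between 0.925 and 0.959 of them. The origin of this size was not stated, and it raises FPKM in replicates 2 and 3 relative to reads in genes. Genes with merged exons of more than 8 kb took 16.6% and 17.9% of the reads in genes in TNF-α replicates 2 and 3. In the other 4 libraries they took between 28.8% and 29.1%. The 38 integrin and laminin genes, many of them long, took 0.429% and 0.463% of the reads in these 2 libraries and between 0.700% and 0.745% in the others. Values are therefore given below with and without these libraries. The part that this difference between libraries had in each result was not tested, apart from the corrected values given beside it.

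The labelled cell type was checked against marker genes. VIM, NES, SOX2 and CD44 were expressed in all 6 libraries, with 22.6 FPKM or more. In TNF-α replicates 1 to 3, VIM was at 434, 974 and 850 FPKM, NES at 40.8, 69.2 and 58.0 FPKM and SOX2 at 57.8, 22.6 and 30.4 FPKM. Their NC ranges were 325 to 362, 41.1 to 44.4 and 58.9 to 66.3 FPKM, and CD44 stayed at 133 to 141 FPKM throughout. The log2 fold change of CD44 was 0.03, but ran from -0.54 to 0.35 over 15 alternatives in processing. GFAP was between 7.10 and 9.47 FPKM in NC and between 1.58 and 2.60 FPKM in the TNF-α group. GFAP fell 3.76-fold (log2 fold change -1.54, SE 0.179, limma adjusted p = 0.0210), a call that 8 of 15 alternatives kept. S100B and OLIG2 stayed below 0.169 FPKM and AQP4 had no reads, so 3 of the 8 astroglial markers were near or at 0. Of the markers of other cell types, 3 of 4 endothelial and 3 of 3 platelet genes were below 1 FPKM in every library, as were EPCAM and CDH1 of the 4 epithelial genes. The endothelial list summed to 6.21 to 6.80 FPKM in NC and 2.16 to 5.98 FPKM in the TNF-α group, nearly all of it KDR, at 5.74, 1.95 and 2.00 FPKM in TNF-α replicates 1 to 3. The epithelial list summed to 11.8 to 13.9 FPKM in NC and 9.18 to 33.95 FPKM in the TNF-α group, mostly KRT18, at 8.73, 32.6 and 24.7 FPKM in these replicates. Neither KDR nor KRT18 passed the test (limma adjusted p = 0.195 and 0.275), in both TNF-α replicates 2 and 3 stood apart from the other 4 libraries, and their part in the results was not tested. Fewer cells of a type and less RNA per cell cannot be told apart in such bulk samples.

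Of the 37 genes, 20 reached 1 FPKM in at least 3 of the 6 libraries and were tested, 14 integrins and 6 laminins. The 17 others never exceeded 0.441 FPKM, and 12 of them never exceeded 0.1 FPKM. ITGA8 had no reads in any library, which allows up to 3 reads per library, or between 0.0110 and 0.0164 FPKM for this gene. The highest of the untested genes were LAMA2, a chain of muscle and nerve basement membranes, at 0.261 to 0.441 FPKM, and ITGB2, the shared beta chain of leukocyte integrins, at 0.244 to 0.435 FPKM. The remaining ones were ITGA9, ITGA10, ITGA11, ITGA2B, ITGAD, ITGAL, ITGAM, ITGAX, ITGB6, ITGB7, LAMA1, LAMA3, LAMB4 and LAMC3.

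**Figure D1:**
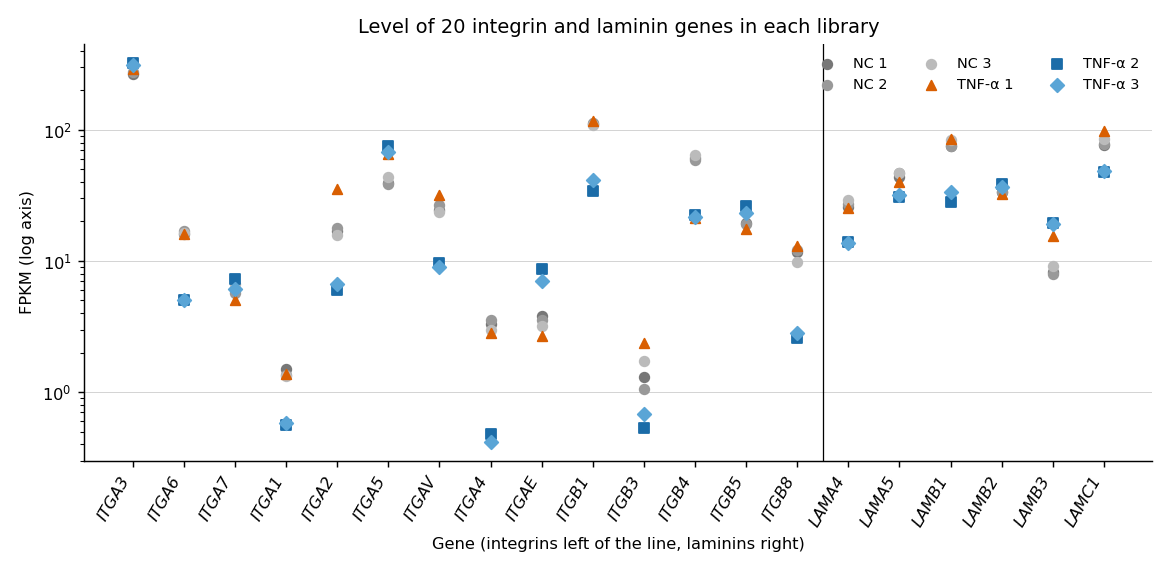
Level in FPKM (log axis) of the 20 tested integrin and laminin genes in each of the 6 libraries, with 1 point per library. ITGA3 was the highest at 268 to 324 FPKM, ITGB4 and LAMB3 separated all 3 TNF-α libraries (colored) from NC (grey), and genes such as ITGB1, ITGA2 and ITGB8 separated TNF-α replicates 2 and 3 from the other 4 libraries.

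ITGB4, the beta chain that pairs with ITGA6 in the anchors between epithelial cells and laminin (hemidesmosomes), had the lowest p of the members. The gene lies on chromosome 17, from 75721328 to 75757818 on the plus strand of GRCh38, and none of its exonic bases overlap another gene. Its level was 60.6, 58.6 and 64.2 FPKM in NC replicates 1 to 3 and 21.3, 22.4 and 21.7 FPKM in TNF-α replicates 1 to 3. All 3 TNF-α libraries were below all NC libraries, and they lay close together although replicates 2 and 3 stood apart for most other members. The mean was 61.2 ± 2.85 FPKM in NC and 21.8 ± 0.576 FPKM in the TNF-α group (SD, n = 3 each), which is 2.81-fold lower. On the log2(FPKM + 1) scale the change was -1.45 (SE 0.125, limma adjusted p = 0.00902). After correction for GC content and length it was -1.53 (SE 0.0858, limma adjusted p = 0.000762). When single libraries were left out, the call was lost in limma without NC replicate 1, 2 or 3 (adjusted p = 0.112, 0.111 and 0.112) and without TNF-α replicate 3 (adjusted p = 0.10). The log2 fold changes were between -1.41 and -1.48 in these 4 fits. The call was also lost with the replicate number as a block (limma adjusted p = 0.119).

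LAMB3 encodes a beta chain that forms part of the laminin of epithelial basement membranes, with LAMA3 as the alpha chain. It lies on chromosome 1, from 209614870 to 209652466 on the minus strand. The NC libraries had 8.30, 7.98 and 9.21 FPKM, and the TNF-α libraries had 15.6, 19.3 and 19.1 FPKM. The groups did not overlap, and the lowest TNF-α library, replicate 1, was still well above the highest NC library. The means were 8.50 ± 0.638 and 18.0 ± 2.08 FPKM (SD, n = 3 each), 2.12-fold higher in the TNF-α group, with a log2 fold change of 1.00 (SE 0.140, limma adjusted p = 0.0387). With the GC and length correction it was 0.78 (limma adjusted p = 0.00558). The call ended when any library other than TNF-α replicate 1 was left out, with limma adjusted p = 0.315, 0.318 and 0.240 without NC replicates 1 to 3 and 0.163 and 0.248 without TNF-α replicates 2 and 3. It also ended in limma with TPM (adjusted p = 0.178), with no filter on low values (adjusted p = 0.0883) and with the replicate number as a block. The log2 fold change stayed above 0.56 under all 15 alternatives. LAMA3 was between 0.00789 and 0.0742 FPKM in the 6 libraries, so that LAMB3 was measured with almost no transcript of its usual alpha partner.

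ITGA5, the alpha chain of the main fibronectin receptor, lies on chromosome 12 from 54395261 to 54419460 (minus strand). The NC libraries had 39.0, 38.7 and 43.6 FPKM and the TNF-α libraries 65.6, 74.7 and 68.3 FPKM. Its 3 TNF-α libraries were above all NC libraries and close to each other. The mean went from 40.4 ± 2.76 to 69.5 ± 4.67 FPKM (SD, n = 3 each), a ratio of 1.72, and the log2 fold change of 0.77 (SE 0.140) did not pass the test (limma adjusted p = 0.0886). Corrected for GC content and length, it was 0.74 and passed (limma adjusted p = 0.0120). It was 0.28 with TPM (adjusted p = 0.280) and 0.32 with quantile normalization (adjusted p = 0.234), and limma called ITGA5 in 3 of 15 alternatives. Its beta partner ITGB1 had no such pattern, as described below.

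**Figure D2:**
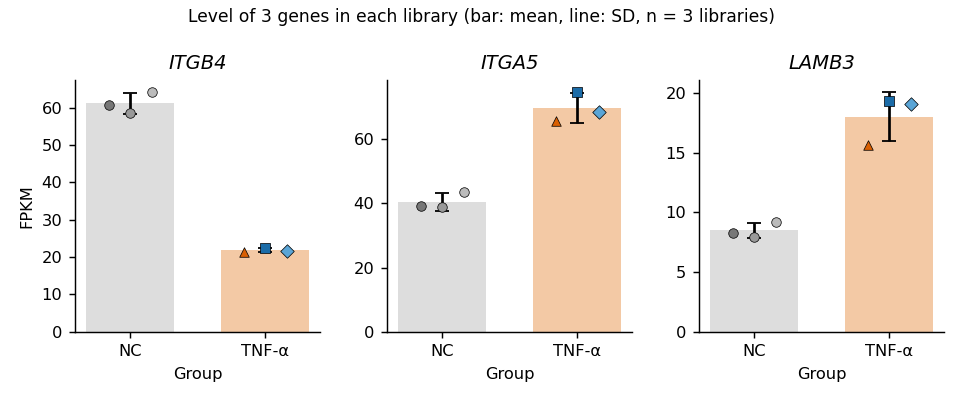
FPKM of ITGB4, ITGA5 and LAMB3 in NC and TNF-α libraries, with each library as a point, the mean of 3 libraries as a bar and the SD as a line, on axes that start at 0. In each of the 3 genes the 3 TNF-α points lie on one side of all NC points, lower for ITGB4 (21.3 to 22.4 against 58.6 to 64.2 FPKM) and higher for the other genes.

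The promoter sequences of ITGA5 and LAMB3 are shown because both genes stood higher in all 3 TNF-α libraries and hold a motif of AP-1, a transcription factor that responds to cytokines. The sequences come from RefSeq (GRCh38.p14) and run from 200 bases before to 20 bases after the transcription start. Capitals mark the motif TGANTCA, which reads the same on both strands. For LAMB3, 1 of its 3 listed starts is shown.

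ITGA5, chr12:54419247-54419466, minus strand: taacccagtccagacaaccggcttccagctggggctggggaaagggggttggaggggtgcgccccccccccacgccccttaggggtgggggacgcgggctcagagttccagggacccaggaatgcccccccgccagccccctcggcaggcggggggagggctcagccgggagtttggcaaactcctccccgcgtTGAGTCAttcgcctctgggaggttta

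LAMB3, chr1:209651355-209651574, minus strand: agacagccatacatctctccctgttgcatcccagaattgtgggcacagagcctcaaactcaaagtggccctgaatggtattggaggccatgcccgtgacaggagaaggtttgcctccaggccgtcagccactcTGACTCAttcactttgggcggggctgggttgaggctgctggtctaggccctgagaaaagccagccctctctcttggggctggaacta

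The motif began at base -6 from the start in ITGA5 and at base -67 in LAMB3. Promoters of 250 bases before to 50 bases after the start were listed for 26 of the 37 members, and 3 of these 26 genes held the AP-1 motif (11.5%), the other one being LAMA3. The share over all 27305 genes of the promoter table was 9.37%. The NF-kB consensus, the motif of the main transcription factor downstream of TNF-α, was found on either strand in 8 of the 26 genes (30.8%), against 13.3% of all genes. These 8 were ITGA1, ITGA10, ITGA11, ITGA5, ITGB1, ITGB8, LAMB1 and LAMB3. They include ITGA5 and LAMB3, which were higher and held both motifs. Only the AP-1 motif is marked in the sequences above. For LAMB3 a match in any of its 3 listed windows counted, so both motifs need not lie in the same window. ITGA10 and ITGA11 were below 0.1 FPKM, and ITGB1, ITGB8, LAMB1 and ITGA1 split the TNF-α group. A match of letters in these windows is a description and no evidence of binding.

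Over the 20 tested members, limma called 2 at an adjusted p under 0.05, LAMB3 higher and ITGB4 lower. Of all 12136 tested genes, 1.01% were called, 0.717% higher and 0.297% lower. Before adjustment, 7 members had a p under 0.05, as had 24.2% of all genes. The groups did not overlap for 6 of the 20 members (2 higher and 4 lower), which is a share of 30.0% beside 30.1% of all genes, 14.8% higher and 15.3% lower. These 6 were ITGA5 and LAMB3 on the higher side and ITGB4, ITGA4, LAMA4 and LAMA5 on the lower side. With the GC and length correction, limma called 3 members (ITGA5 and LAMB3 higher, ITGB4 lower), and 2.79% of all genes were called, 1.78% higher and 1.01% lower. Quantile normalization and limma-voom on recovered reads each called ITGB4 and LAMB3, with 1.52% and 0.931% of all genes called. The median log2 fold change was -0.46 over the 14 integrins and -0.40 over the 6 laminins, and 0.04 over all genes. After the correction these medians were -0.28, -0.03 and 0.00, and with TNF-α replicate 1 as the sole TNF-α library the integrin and laminin medians were 0.02 and 0.0033.

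**Figure D3:**
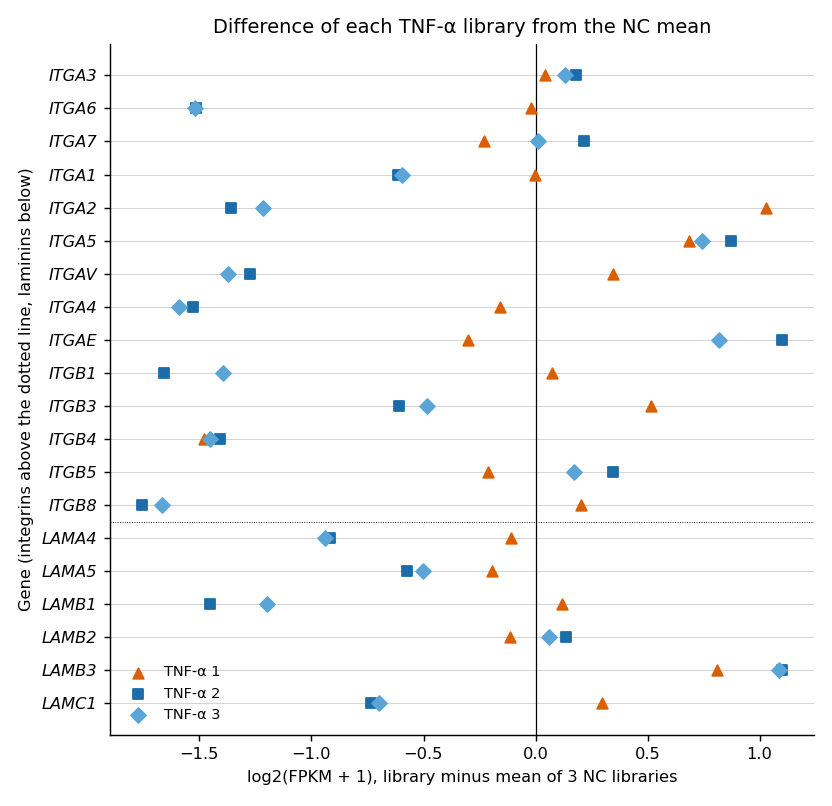
Difference in log2(FPKM + 1) between each TNF-α library and the mean of the 3 NC libraries for the 20 tested genes, with 1 symbol per library. The 3 symbols of ITGB4 lie together between -1.48 and -1.41, whereas for ITGA2 replicate 1 is at 1.03 and replicates 2 and 3 are at -1.36 and -1.22.

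The laminin-binding alpha chains were ITGA3, ITGA6 and ITGA7, and none passed the test. ITGA3, a receptor chain for the laminins of epithelium, was the most abundant integrin transcript, with 268, 275 and 314 FPKM in NC and 293, 324 and 313 FPKM in the TNF-α group. Its groups overlapped and its log2 fold change was 0.12 (limma adjusted p = 0.592), but -0.38 with TPM and -0.60 with quantile normalization. ITGA6, the partner of ITGB4, was at 15.9, 16.9 and 16.2 FPKM in NC and at 16.1, 5.07 and 5.05 FPKM in the TNF-α group. Replicate 1 was thus inside the NC range and the others were far below it, so the log2 fold change of -1.02 had an SE of 0.412 (limma adjusted p = 0.195). ITGA6 therefore did not share the uniform pattern of ITGB4. ITGA7, best known from muscle, overlapped between the groups, at 5.66 to 6.66 FPKM in NC and 5.04 to 7.23 FPKM in the TNF-α group.

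The collagen-binding alpha chains were measured with ITGA1 and ITGA2. ITGA2 had 17.0, 17.7 and 15.8 FPKM in NC and 35.4, 5.96 and 6.68 FPKM in TNF-α replicates 1 to 3. Replicate 1 was above every NC library and replicates 2 and 3 were below every NC library, the widest such split of the members. The log2 fold change over all libraries was -0.51 (SE 0.628, limma adjusted p = 0.530). Without replicate 1 it was -1.29 (limma adjusted p = 1.39e-05), and without replicates 2 and 3 it was 1.03 (limma adjusted p = 0.00220). With the GC and length correction replicate 1 was 0.99 above the NC mean and replicates 2 and 3 were at -0.61 and -0.52, so the split was smaller and the signs were as before. ITGA1 was low, between 1.31 and 1.501 FPKM in NC and at 1.38, 0.561 and 0.581 FPKM in the TNF-α group.

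Among the alpha chains that recognise the RGD motif of fibronectin and vitronectin, ITGA5 has been described. ITGAV, which pairs with several beta chains and can activate latent TGF-β, had 24.5, 26.5 and 23.7 FPKM in NC and 31.9, 9.70 and 8.98 FPKM in the TNF-α group. It was above NC in replicate 1 and below NC in the others (log2 fold change -0.77, limma adjusted p = 0.241). ITGA4, a chain that binds VCAM1 and fibronectin, was at 3.29, 3.57 and 2.97 FPKM in NC and at 2.82, 0.479 and 0.417 FPKM in the TNF-α group. Its groups did not overlap, but replicate 1 was only just below the lowest NC library, and the log2 fold change of -1.09 (SE 0.390) did not pass the test (limma adjusted p = 0.195).

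Leukocyte integrins were at or near 0 with 1 exception. Of the 7 genes of this class, 6 were not tested, and those other than ITGB2 never exceeded 0.0330 FPKM. ITGAE, which on intraepithelial lymphocytes pairs with ITGB7, had 3.83, 3.57 and 3.17 FPKM in NC and 2.66, 8.69 and 6.97 FPKM in the TNF-α group. Replicate 1 was below NC and replicates 2 and 3 were above it (log2 fold change 0.54, limma adjusted p = 0.278). ITGB7 was at 0.0309 FPKM or less. The leukocyte markers PTPRC and CD3E had no reads, 4 of 5 such markers were below 1 FPKM in every library, and their summed level was between 0.886 and 1.16 FPKM in NC and between 0.649 and 1.64 FPKM in the TNF-α group.

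Of the beta chains other than ITGB4, ITGB1 is the common partner of most alpha chains. Its level was 110, 112 and 108 FPKM in NC and 116, 34.2 and 41.3 FPKM in the TNF-α group. The NC libraries and TNF-α replicate 1 were nearly equal and the last 2 were far lower, so that the log2 fold change of -0.99 had an SE of 0.449 (limma adjusted p = 0.195). ITGB8, an activator of TGF-β with ITGAV, showed 11.7, 12.1 and 9.73 FPKM in NC and 13.0, 2.60 and 2.83 FPKM in the TNF-α group (log2 fold change -1.07, limma adjusted p = 0.198). ITGB5, another partner of ITGAV, had 19.5, 19.1 and 23.5 FPKM in NC and 17.6, 26.5 and 23.4 FPKM in the TNF-α group. It thus overlapped, with a log2 fold change of 0.10 (limma adjusted p = 0.679) that was -0.39 with TPM and -0.16 with quantile normalization. ITGB3 was low, at 1.06 to 1.71 FPKM in NC and at 2.35, 0.536 and 0.675 FPKM in the TNF-α group, and 51.6% of its exonic bases overlap another annotated gene, so its value is uncertain.

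The laminin alpha chains measured were LAMA4, a chain of vessel basement membranes, and LAMA5, the widely expressed one. LAMA4 had 26.0, 27.0 and 29.05 FPKM in NC and 25.2, 14.0 and 13.8 FPKM in the TNF-α group. LAMA5 had 43.7, 46.9 and 47.0 FPKM in NC and 40.0, 30.5 and 32.1 FPKM in the TNF-α group. In both genes all TNF-α libraries were lower than all NC libraries, with replicate 1 the nearest to NC, and neither passed the test (log2 fold changes -0.66 and -0.42, limma adjusted p = 0.195 for both). With the GC and length correction the log2 fold changes were -0.30 and -0.03.

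LAMB1 and LAMC1 together form the common core of most laminins. They were the most abundant of the reported laminin chains in NC and in TNF-α replicate 1. In TNF-α replicates 2 and 3 LAMC1 was the highest of these chains, and LAMB2, at 38.4 and 36.3 FPKM, was above LAMB1. LAMB1 had 75.8, 75.8 and 83.4 FPKM in NC and 85.0, 27.95 and 33.5 FPKM in the TNF-α group. LAMC1 had 76.9, 78.5 and 84.6 FPKM in NC and 98.3, 47.6 and 48.8 FPKM in the TNF-α group. Both were above every NC library in replicate 1 and below every NC library in replicates 2 and 3, and neither passed the test (log2 fold changes -0.84 and -0.38, limma adjusted p = 0.197 and 0.345). The corrected log2 fold change of LAMC1 was -0.0023, while that of LAMB1 was -0.64. For LAMC1 the corrected differences from the NC mean were 0.29, -0.16 and -0.14 in TNF-α replicates 1 to 3, with the signs as before. LAMB2, the beta chain of synaptic and vessel laminins, was level at 33.3 to 38.0 FPKM in NC and 32.2 to 38.4 FPKM in the TNF-α group (log2 fold change 0.03, SE 0.142, and -0.47 with TPM and -0.35 with quantile normalization).

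The split of the TNF-α group went in part with the GC content of the members. The 7 members with transcripts under 45% GC were ITGA1, ITGA2, ITGA4, ITGA6, ITGAV, ITGB1 and ITGB8, all of them integrins. Their median log2 difference from the NC mean was 0.07 in replicate 1, -1.51 in replicate 2 and -1.39 in replicate 3. For the 13 other members these medians were -0.11, 0.14 and 0.01, but they ranged from -1.45 to 1.10 in replicate 2 and from -1.45 to 1.09 in replicate 3. LAMB1, LAMC1, LAMA4, LAMA5, ITGB3 and ITGB4 were below the NC mean in both of these libraries. Corrected for GC content and length, most of the 7 members under 45% GC still lay below the NC mean in replicates 2 and 3. ITGB1 was then at -1.29 and -1.09, ITGA4 at -1.23 and -1.31, and ITGA6 at -0.95 and -0.99. ITGB8 was at -0.96 and -0.94, ITGAV at -0.54 and -0.71, and ITGA2 at -0.61 and -0.52. Only ITGA1 was above it, at 0.21 and 0.18. Across the 20 members, Spearman's rank correlation between GC content and the log2 difference was -0.44, 0.629 and 0.602 in replicates 1 to 3, and -0.10, 0.453 and 0.441 across 12131 genes. The rank correlation with gene length (merged exons) was 0.04, -0.26 and -0.29 across the members, and 0.05, -0.41 and -0.43 across the 12131 genes. The members share each library and the same NC mean, so these values describe the libraries. Among members with at least 60.2% GC, ITGA3, ITGA7 and LAMB2, with 60.2% to 61.3%, differed from the NC mean by 0.01 to 0.22 in replicates 2 and 3, and LAMA5, with 66.4%, by -0.57 and -0.50, whereas ITGB4, with 63.7%, differed by -1.41 and -1.45.

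**Figure D4:**
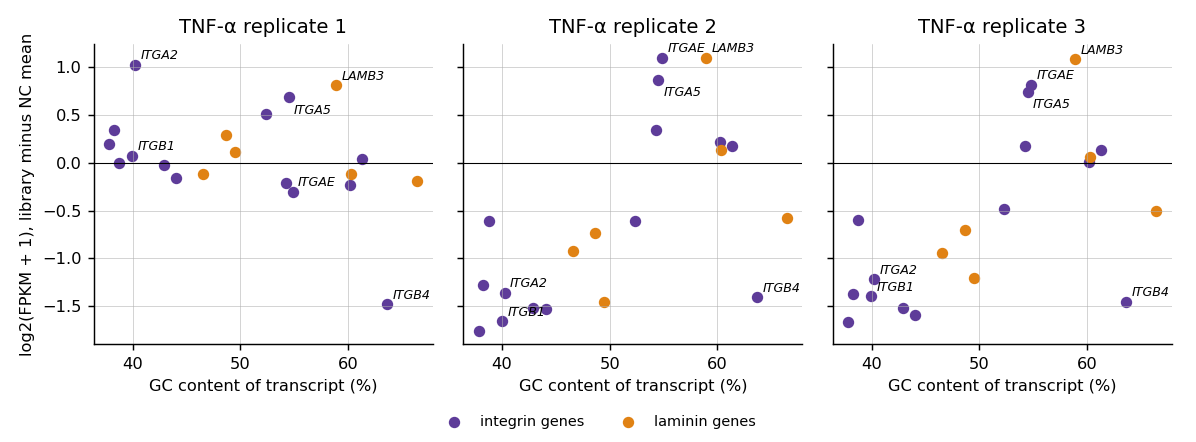
Difference in log2(FPKM + 1) from the NC mean (vertical axis) against the GC content of the longest transcript in % (horizontal axis) for 20 integrin and laminin genes, with 1 panel per TNF-α library. In replicates 2 and 3 the 7 genes under 45% GC lie below 0, with medians of -1.51 and -1.39, while in replicate 1 their median is 0.07 and ITGB4 is low in all 3 panels.

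The number of members called depended on which libraries were kept. Without TNF-α replicate 1, limma called 16 of the 20 members (3 higher and 13 lower), when 79.4% of all genes were called, 42.6% higher and 36.8% lower. Without TNF-α replicates 2 and 3, it called 4 members (ITGA2, ITGA5 and LAMB3 higher, ITGB4 lower), when 6.03% of all genes were called, 3.7% higher and 2.33% lower. In that fit the single TNF-α library is assumed to vary as the NC libraries do. ITGB4, ITGA5 and LAMB3 had the same sign in both fits. Their log2 fold changes were -1.43, 0.81 and 1.09 in the first and -1.48, 0.69 and 0.81 in the second. ITGA2 had opposite signs, at -1.29 and 1.03. Both fits use the same NC libraries, and how many of all genes kept their sign was not counted.

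Since FPKM is per length, the chains could be compared within a library as shares of their summed FPKM, which is unaffected by the library size. The shares were not corrected for GC content or length. GC content differed between the chains, with 40.0% for ITGB1 and 63.7% for ITGB4. ITGA3 made up 70.7%, 70.7% and 73.4% of the alpha chain FPKM in NC and 64.6%, 74.2% and 75.2% in the TNF-α group. ITGA5 made up 10.3%, 9.94% and 10.2% in NC and 14.4%, 17.1% and 16.4% in the TNF-α group, higher in every TNF-α library. Of the beta chain FPKM, ITGB4 held 29.7%, 28.9% and 30.9% in NC and 12.5%, 25.9% and 24.0% in the TNF-α group. The share of ITGB4 was therefore lower in all 3 TNF-α libraries, but by much less in replicates 2 and 3, in which ITGB1 was also lower. In replicate 1 ITGB1 held 67.9% of the beta chain FPKM, and in replicates 2 and 3 it held 39.5% and 45.6%.

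Within the laminins, LAMB3 went from 7.06%, 6.81% and 7.05% of the beta chain FPKM in NC to 11.8%, 22.6% and 21.5% in the TNF-α group. The share of LAMB3 was above NC in every TNF-α library, and was largest in replicates 2 and 3, in which LAMB1 was also lower. LAMB1 stayed above LAMB3 in each of the 6 libraries. LAMB2 held 44.8% and 40.8% in replicates 2 and 3, above LAMB1 with 32.6% and 37.6%. Shares are given as a description, without a test.

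**Figure D5:**
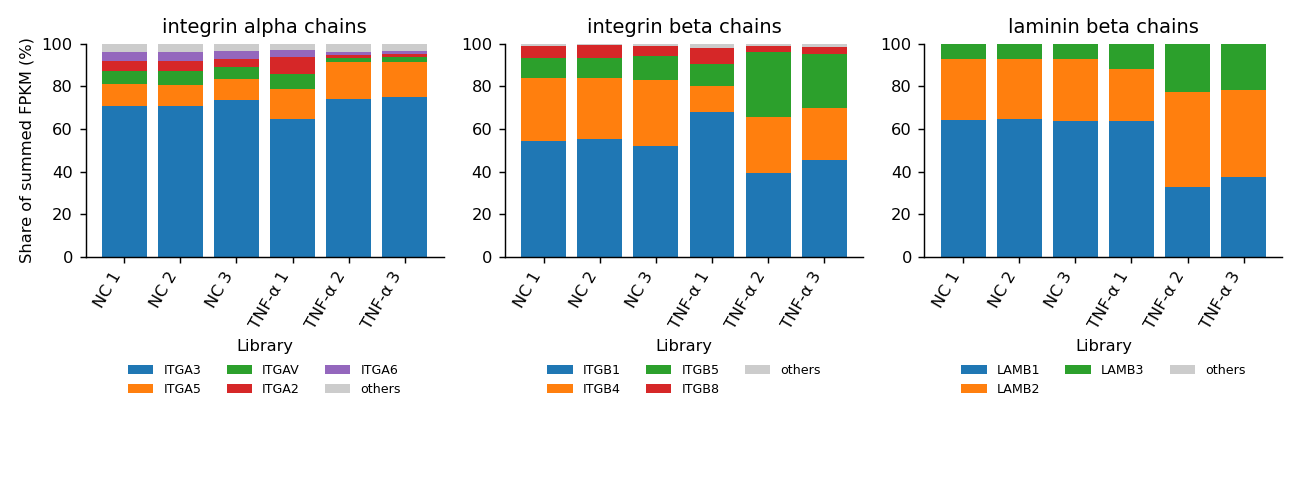
Share of each chain in the summed FPKM (%) of all integrin alpha, integrin beta or laminin beta chains, with 1 stacked bar per library and minor chains drawn in grey. LAMB3 took 6.81% to 7.06% of the laminin beta chains in NC and 11.8% to 22.6% in the TNF-α group, and ITGB4 took a smaller share of the integrin beta chains in each TNF-α library than in any NC library.

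The partners of integrins and laminins were taken from 4 lists of 57 genes, of which 42 were tested and 2 were called by limma (1 higher and 1 lower), which is 4.76% beside 1.01% of all genes. Among other ligands of integrins, 1 of 10 tested genes passed. This was ICAM1, the ligand of leukocyte integrins such as ITGAL, which had 3.25, 3.74 and 4.32 FPKM in NC and 75.9, 52.6 and 63.7 FPKM in the TNF-α group (log2 fold change 3.76, SE 0.180, limma adjusted p = 0.000833). ICAM1 was thus far higher in each TNF-α library, while its receptors ITGAL, ITGAM and ITGAX were at 0.0330 FPKM or less in these cells. THBS1, a matrix protein bound by several integrins, was at 459, 441 and 502 FPKM in NC and at 340, 105 and 133 FPKM in the TNF-α group (limma adjusted p = 0.195).

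Among the basement membrane partners of laminin, 1 of 5 tested genes passed. NTN4, a netrin that binds the laminin gamma chain and opens laminin networks, had 4.28, 5.33 and 4.95 FPKM in NC and 1.85, 0.648 and 0.959 FPKM in the TNF-α group (log2 fold change -1.48, SE 0.221, limma adjusted p = 0.0483). All its TNF-α libraries were below NC. Its call ended in limma when any library other than TNF-α replicate 1 was left out (adjusted p from 0.127 to 0.317), and 11 of 15 alternatives did not keep it. AGRN and COL4A2, both structural proteins of the basement membrane, overlapped between the groups. AGRN ranged from 128 to 136 FPKM in NC and from 106 to 135 FPKM in the TNF-α group, and COL4A2 from 27.5 to 30.7 and from 30.6 to 34.8 FPKM.

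None of the 20 tested adaptor and focal adhesion genes passed, and 4 of them (20.0%) had an unadjusted p under 0.05, beside 24.2% of all genes. The most abundant, FLNA (filamin A, a crosslinker of actin that binds integrin tails), was at 746 to 838 FPKM in NC and at 773 to 828 FPKM in the TNF-α group. ACTN4, an actinin that links integrins to actin, was at 422 to 508 FPKM in NC and at 342 to 417 FPKM in the TNF-α group (limma adjusted p = 0.273). Of the 7 genes listed as non-integrin laminin receptors and tetraspanins, none passed and 2 (28.6%) had an unadjusted p under 0.05. The list also held CD47, an integrin-associated protein of neither kind, which was 1 of these 2 genes. CD151, a tetraspanin bound to laminin-binding integrins, was at 57.2, 53.0 and 65.04 FPKM in NC and at 53.4, 172 and 145 FPKM in the TNF-α group. RPSA, a ribosomal protein also known as a laminin receptor, was at 290 to 305 FPKM in NC and at 267, 1056 and 832 FPKM in the TNF-α group. For both genes TNF-α replicates 2 and 3 were high, and replicate 1 lay within the NC range for CD151 and below it for RPSA, the opposite split to that of ITGB1.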

How the data were processed

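RNA-seq was done on total RNA of U251 cells (TRIzol, poly(A) selection, NEBNext Ultra kit), 3 NC and 3 TNF-α libraries, grouped by sample title. The submitters' processing notes list HISAT2 2.0.5, StringTie 1.3.3b and featureCounts 1.5.0, and the use of strand in counting was not stated. The authors deposited FPKM per gene and library, without pooling. A further 6 columns of the table name other samples and were not used. All 58735 genes matched GENCODE release 29 (GRCh38) in start, end, name and merged exon length. Whole reads were recovered from FPKM and length for 100% of values (within 0.001).

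The integrin and laminin genes and the partner and marker lists were chosen with earlier results of these data known. A total of 1 member and 1 marker gene are not reported here. All other members could be named; of each partner list, up to 5 called genes with the largest change were named, or the 2 of highest FPKM where fewer than 2 were called. CD47 was named in addition, to describe its list, and CCN1 and CCN2 were matched by gene identifier. Values were tested as log2(FPKM + 1), which understates changes of low genes, in genes with at least 1 FPKM in at least 3 libraries (12136 genes), with limma 3.58.1 in R 4.3.3 (eBayes with a trend, two-sided) and Benjamini-Hochberg adjustment over all tested genes. The correction fitted the log2 ratios with natural splines (5 degrees of freedom) of GC content and length and their products in 12131 genes. Other alternatives were a pseudocount of 0.1, no filter, TPM, quantile normalization, eBayes without a trend, limma-voom, the replicate number as a block, and leaving out libraries. The code was tested on simulated data that, unlike these, had no TNF-α library standing apart and no trend with GC content or length. Python 3.11.15, pandas 2.3.3 and scipy 1.17.1 were used, with matplotlib 3.10.9 for plots.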

Additional observations from a re-analysis of the deposited data

How the results depend on the processing

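The members called by limma were LAMB3 and ITGB4, and this count of 2 was the same with a pseudocount of 0.1, eBayes without a trend, quantile normalization and limma-voom on recovered reads. It was 1 with no filter on low values or TPM, 3 with the GC and length correction and 4 without TNF-α replicates 2 and 3 together, and from 0 to 16 when each library was left out in turn. The count over all genes, 123, became 58 with no filter, 58 with TPM, 185 with quantile normalization, 338 with the GC and length correction, 732 without TNF-α replicates 2 and 3, and from 10 to 9630 over single libraries left out, with 9630 without TNF-α replicate 1. Partner genes called went from 2 to 1, NTN4 being lost, with a pseudocount of 0.1 (adjusted p = 0.0774), no filter (0.135), TPM (0.155), eBayes without a trend (0.0518) and limma-voom (0.0648), to 9 without TNF-α replicates 2 and 3, and to between 1 and 36 over single libraries left out. The median of the integrins, -0.46, was -1.01 with TPM, -0.016 with no filter (untested low genes included), -0.95 when TNF-α replicate 1 was dropped, -0.20 and -0.24 when replicate 2 or 3 was, and 0.020 when both were, and that of the laminins, -0.40, was -0.0056 with no filter, -0.91 with TPM, -0.79 with quantile normalization, -0.035 with the GC and length correction and 0.0033 without TNF-α replicates 2 and 3. Under TPM the all-gene median itself was -0.42, and the medians relative to it were -0.59 for integrins and -0.49 for laminins.

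With the replicate number as a block, limma called 24 genes, 0 members and 1 partner, with adjusted p of 0.119 for ITGB4, 0.202 for LAMB3 and 0.171 for NTN4. The correlations of same-numbered libraries' deviations were -0.01, -0.18 and 0.12, and not every library correlated best with its own number. The deviations within so small a group depend on each other, and the TNF-α libraries were not alike. These correlations therefore cannot decide whether the numbers pair the libraries.

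Of 450 comparisons of a single gene over 15 alternatives, 363 kept sign and side of the threshold, 23 passed it newly, 24 no longer passed and 40 changed sign. The log2 fold changes that changed sign were as follows. With TPM they were -0.38 (ITGA3), -0.39 (ITGB5), -0.47 (LAMB2), -0.48 (FLNA), -0.28 (CCN2) and -0.33 (COL4A2). With quantile normalization they were -0.60 (ITGA3), 0.030 (ITGA7), 0.055 (ITGB3), -0.16 (ITGB5), -0.35 (LAMB2), -0.70 (FLNA), -0.61 (CCN2) and -0.14 (COL4A2). With the GC and length correction they were 0.12 (ITGA1), -0.034 (LAMB2) and -0.12 (CCN2). Without TNF-α replicates 2 and 3 they were 1.03 (ITGA2), 0.35 (ITGAV), -0.30 (ITGAE), 0.074 (ITGB1), 0.52 (ITGB3), -0.21 (ITGB5), 0.20 (ITGB8), 0.12 (LAMB1), -0.11 (LAMB2), 0.29 (LAMC1), -0.057 (CCN2), 0.048 (AGRN), -0.17 (RPSA) and -0.12 (CD151). With single libraries left out, LAMB2 ranged from -0.027 to 0.097, FLNA from -0.0031 to 0.081, ITGA7 from -0.11 to 0.11, ITGB3 from -0.55 to 0.015 and ITGB5 from -0.020 to 0.26. The causes were not tested.

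At this depth 3 reads in a 6 kb gene were 0.0138 to 0.0206 FPKM, and differences among the 17 untested members were not examined. Intervals from reads cover counting error only.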
